A study of Mus musculus with 9 samples.

Results

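The erythroid and heme synthesis genes described here are the adult globin genes, the enzymes and carriers of heme synthesis and iron uptake, proteins of the red cell membrane, erythroid transcription factors with the erythropoietin receptor, and enzymes of red cell maturation. They were taken by symbol from a list of 35 genes. Of these, 34 had a row among the 18272 genes of the deposited table, and 34 were among the 13960 genes that passed the filter on low counts (10 or more counts in 3 or more of the 9 libraries). *Ahsp*, which encodes the chaperone of free alpha-globin, was not analysed here.

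RNA-seq was carried out on the tibia of 9 female C57BL/6J mice that were 10 to 11 weeks old when obtained, with 1 library per mouse and 3 mice in each group. NGT mice (normal glucose tolerance) received citrate buffer and then saline. T1D mice received a single injection of streptozotocin (STZ), a toxin taken up by the insulin-producing beta cells, and then saline, so that their diabetes was chemically induced. Lira mice received the same STZ injection and then liraglutide, which activates the receptor of glucagon-like peptide-1, under the skin at 0.6 mg/kg/day. The labels give 8 weeks of liraglutide for Lira mice 1 and 2 and 9 weeks for Lira mouse 3, whereas the methods give 8 weeks for the whole group. The T1D group was compared with the NGT group to find what diabetes alters in bone, and the Lira group with the T1D group to find what the drug alters on that background.

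Red blood cells are formed in the marrow inside bones such as the tibia. Erythroid precursors there switch on *Gata1* and its partner factors, divide under erythropoietin, fill with hemoglobin and then lose their nucleus. Hemoglobin joins alpha-globin and beta-globin chains around heme, and heme is built by a chain of enzymes that begins with 5-aminolevulinate synthase and ends when ferrochelatase places iron in the ring. Most cells make some heme for their cytochromes, so the later enzymes of this chain are widely active, whereas *Alas2* is the erythroid form of the first enzyme.

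Levels of a gene between libraries are given as CPM, counts per 1e6 after scaling of the library totals by the TMM method of edgeR, and levels between different genes as the deposited FPKM, which take gene length into account. Library totals lay between 13086373 and 16528394 counts, and 0 counts are compatible with as many as 3, which equal 0.163 CPM in the deepest scaled library and 0.237 CPM in the shallowest (counting error only). Although the methods describe bones cleaned of muscle, a list of 19 skeletal muscle genes held 121000 to 318000 CPM in every library, while 12 osteoblast and osteocyte genes held 207 to 5590 CPM. In T1D mouse 1 the bone list (5590 CPM) and a macrophage list (1010 CPM, against 54.1 to 197 in the other 8 libraries) stood above all other libraries. In whole bone, fewer erythroid cells and less RNA per erythroid cell cannot be told apart.

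The level of most erythroid genes followed the single mouse and not the group. In 25 of the 34 genes the same 3 libraries were the highest, Lira mouse 3, T1D mouse 3 and NGT mouse 1, and each of them belongs to a different group. In 22 genes the 3 mice numbered 2 were the lowest, and these 22 genes were all among the 25. Lira mouse 3 held the highest level of 29 genes, T1D mouse 3 that of 3 genes (*Fech*, *Tfrc* and *Bpgm*), NGT mouse 2 that of *Sptb* and NGT mouse 3 that of *Ank1*. The lowest level fell in NGT mouse 2 for 19 genes, in T1D mouse 1 for 7, in T1D mouse 2 for 7 and in Lira mouse 2 for 1. Every group therefore held a mouse with high and a mouse with low levels of these genes.

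**Figure D1:**
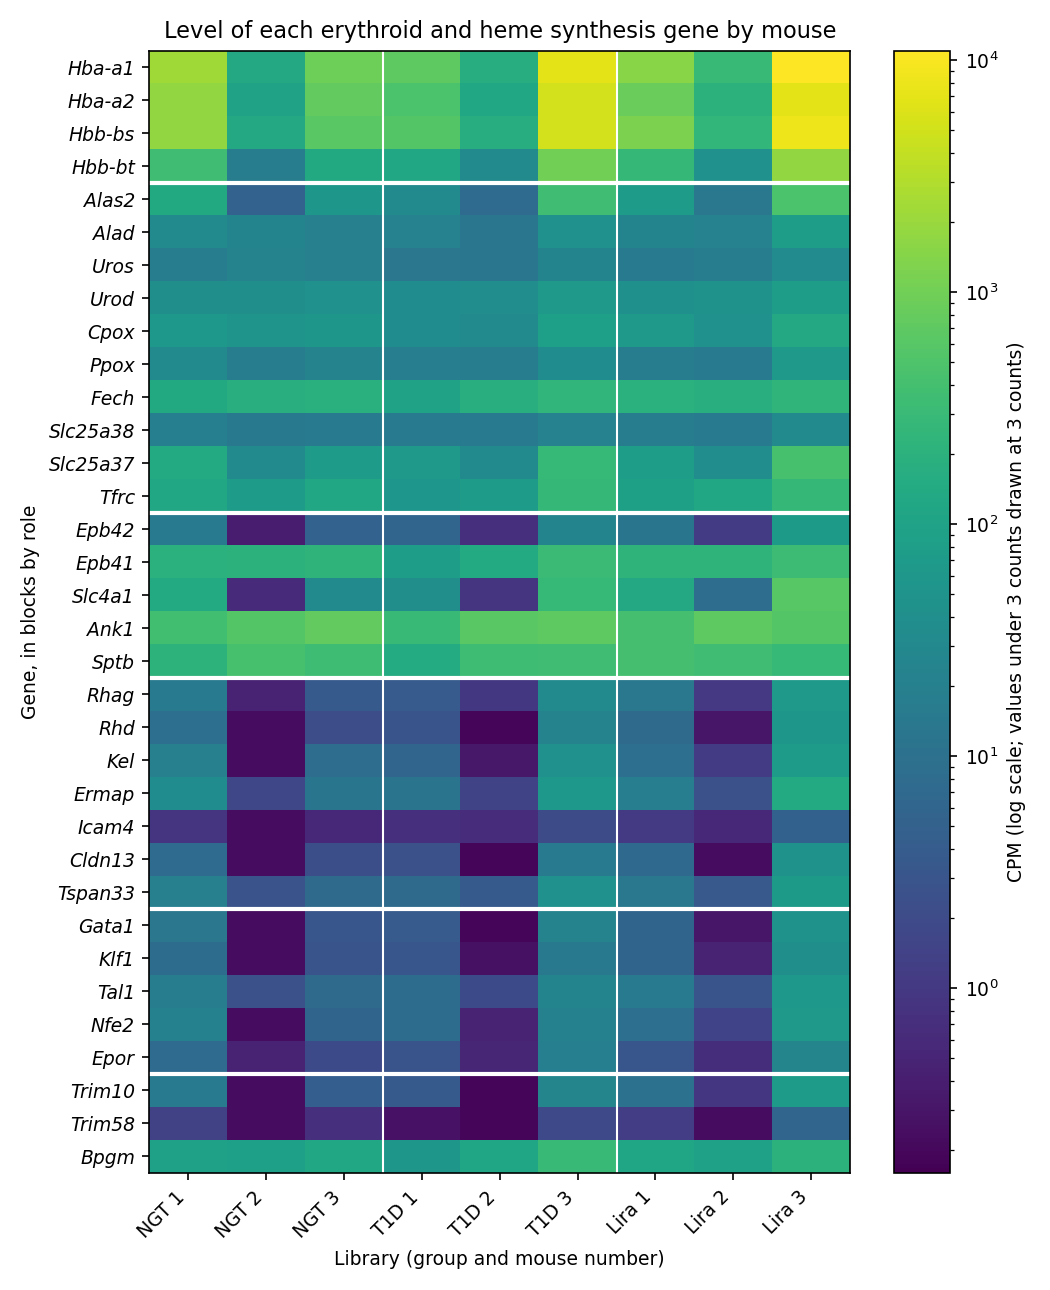
Level of the 34 genes (rows, in blocks by role) in the 9 libraries (columns) in CPM on a log color scale, with values under 3 counts drawn at 3 counts. The columns of the mice numbered 2 are dark in most rows and that of Lira mouse 3 is the brightest in 29 of the 34 rows, while *Ank1*, *Sptb*, *Epb41* and most heme enzymes keep a like color across the columns.

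The ratio of the highest to the lowest library parted the genes into a steep and a flat set, here divided at 10-fold after the values were seen. It exceeded 10 in 22 genes and lay between 2.15 (*Urod*) and 6.47 (*Alad*) in the other 12. With the lowest library set to at least 3 counts, the median of the 34 genes was 42.5, against 2.15 over the 13960 tested genes, of which 10.4% exceeded 10. All 4 globin genes, all 5 factors and receptors and all 7 surface proteins were in the steep set, but only *Alas2* and *Slc25a37* of the 10 heme synthesis and iron genes. In the steep set the spread stood within each group as well, with a median ratio between the highest and lowest mouse of 21.4 in the NGT group (18 genes with more than 3 counts in the lowest mouse or with a bound), 35.3 in the T1D group (18 genes) and 41.4 in the Lira group (22 genes). The biological coefficient of variation, the SD between mice as a fraction of the mean in the edgeR fit, had a median of 1.14 over the 34 genes and of 0.307 over all tested genes.

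**Figure D2:**
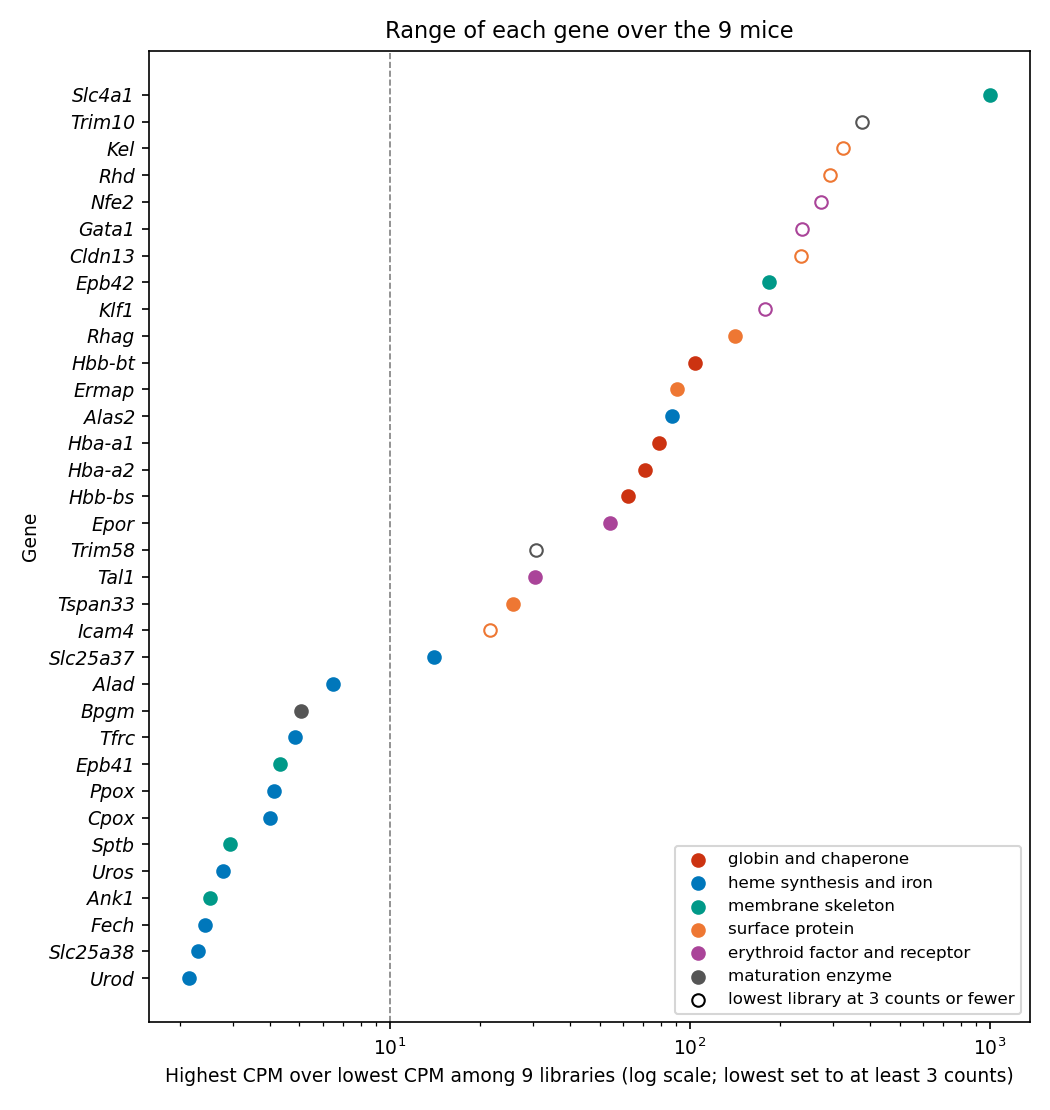
Highest CPM over lowest CPM among the 9 libraries for each of the 34 genes on a log axis, with the lowest library set to at least 3 counts, colored by role, with open circles where the lowest library held 3 counts or fewer and a dashed line at 10. The 22 genes right of the line hold all globin, surface and factor genes, and the 12 left of it hold 8 of the 10 heme synthesis and iron genes.

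Sequence upstream of the transcription start is shown for 7 genes, since the steep genes moved together and GATA1 and KLF1 are known to act on promoters such as these. The table of RefSeq promoters (build GRCm38.p6) held 28 of the 34 genes, and the 250 bases before the start are printed 5′ to 3′ on the strand of the gene. Capitals mark the words AGATAA or TGATAA, the core of sites bound by GATA factors, and CACCC, the core of sites bound by KLF1, on either strand. Capitals run on where matches adjoin, as 3 CACCC matches do upstream of *Alas2*. The set covers both kinds of globin chain, the less abundant beta-globin gene *Hbb-bt* and the erythroid enzyme of heme synthesis. It also holds a factor, a surface protein and, as a flat gene, *Urod*.
*Hba-a1*, chr11:32283422-32283671, plus strand: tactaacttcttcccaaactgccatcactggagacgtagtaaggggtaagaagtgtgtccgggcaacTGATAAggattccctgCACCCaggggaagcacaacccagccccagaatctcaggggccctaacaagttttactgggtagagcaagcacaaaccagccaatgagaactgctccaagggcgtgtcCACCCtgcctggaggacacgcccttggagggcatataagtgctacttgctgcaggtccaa
*Hbb-bs*, chr7:103827929-103828178, minus strand: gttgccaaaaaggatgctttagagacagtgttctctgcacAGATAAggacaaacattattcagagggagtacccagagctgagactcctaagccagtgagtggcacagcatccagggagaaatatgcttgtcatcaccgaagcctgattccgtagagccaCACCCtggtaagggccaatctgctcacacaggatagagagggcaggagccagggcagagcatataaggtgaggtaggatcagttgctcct
*Hbb-bt*, chr7:103813924-103814173, minus strand: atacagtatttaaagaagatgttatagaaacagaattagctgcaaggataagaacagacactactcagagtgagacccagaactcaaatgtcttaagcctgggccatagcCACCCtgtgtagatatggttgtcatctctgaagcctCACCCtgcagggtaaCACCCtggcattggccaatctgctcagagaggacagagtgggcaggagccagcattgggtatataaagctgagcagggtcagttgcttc
*Alas2*, chrX:150547167-150547416, plus strand: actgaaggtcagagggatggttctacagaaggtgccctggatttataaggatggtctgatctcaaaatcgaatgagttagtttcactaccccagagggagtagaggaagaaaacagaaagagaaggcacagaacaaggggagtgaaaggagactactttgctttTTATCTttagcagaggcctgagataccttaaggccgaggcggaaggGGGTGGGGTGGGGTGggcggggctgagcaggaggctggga
*Klf1*, chr8:84901732-84901981, plus strand: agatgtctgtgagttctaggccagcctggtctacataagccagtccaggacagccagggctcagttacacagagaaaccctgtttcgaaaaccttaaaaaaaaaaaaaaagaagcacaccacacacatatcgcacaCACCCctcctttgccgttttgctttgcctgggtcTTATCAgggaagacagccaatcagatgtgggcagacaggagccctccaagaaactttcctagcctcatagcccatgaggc
*Kel*, chr6:41704326-41704575, minus strand: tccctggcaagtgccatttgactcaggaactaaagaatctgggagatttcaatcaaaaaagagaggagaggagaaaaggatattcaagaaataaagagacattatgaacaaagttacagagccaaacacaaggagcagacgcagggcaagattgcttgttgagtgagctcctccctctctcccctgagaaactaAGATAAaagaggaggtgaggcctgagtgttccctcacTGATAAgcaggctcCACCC
*Urod*, chr4:116994414-116994663, minus strand: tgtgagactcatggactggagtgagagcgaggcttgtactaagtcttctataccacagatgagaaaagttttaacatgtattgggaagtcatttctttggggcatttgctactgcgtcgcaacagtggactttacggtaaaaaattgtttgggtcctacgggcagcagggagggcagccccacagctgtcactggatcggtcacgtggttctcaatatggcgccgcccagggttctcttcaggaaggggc

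The GATA word began 183 bases before the start of *Hba-a1*, 210 before *Hbb-bs*, 86 before *Alas2*, 80 before *Klf1* and 56 and 19 before *Kel*, and 0 matches lay upstream of *Hbb-bt* and *Urod*. Over windows of 300 bases, from 250 before to 50 after the start, a GATA word stood in 14 of the 18 steep genes with a promoter and in 2 of the 10 flat ones (*Uros* and *Cpox*). Of the 27025 genes in the promoter table, 21.0% had a match. CACCC stood in 16 of the 18 steep and 6 of the 10 flat genes, against 59.8% of all genes, and CCAAT, the word bound by NF-Y, in 11 of 18 and 6 of 10, against 41.1%. On the reverse strand TGATAA reads TTATCA and may share its last letters with CACCC. A match of letters is a description of the window and shows no binding.

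The globin genes were by far the most abundant of the 34 genes per length. *Hba-a1* (NCBI gene 15122), which encodes alpha-globin, averaged 5190 FPKM over the 9 libraries and its copy *Hba-a2* (110257) 3540 FPKM. The beta-globin gene *Hbb-bs* (100503605) averaged 3410 FPKM and the less abundant beta-globin gene *Hbb-bt* (101488143) 737 FPKM. In NGT mice 1, 2 and 3 the level of *Hba-a1* was 2280, 135 and 956 CPM. It was 697, 166 and 7080 CPM in T1D mice and 1540, 297 and 10700 CPM in Lira mice. The mice numbered 2 were the lowest and Lira mouse 3 the highest, 79.0 times NGT mouse 2, and the 3 groups overlapped over most of their range. Group means were 1130 ± 1080 CPM in NGT, 2650 ± 3850 CPM in T1D and 4180 ± 5680 CPM in Lira mice (SD, n = 3), with SDs close to or above the means. *Hba-a2* read 1820, 98.5 and 745 CPM in NGT mice, 479, 120 and 5120 CPM in T1D mice and 877, 206 and 6960 CPM in Lira mice, the same order of libraries as *Hba-a1*.

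*Hbb-bs* read 1790, 133 and 630 CPM in NGT mice, 549, 166 and 5040 CPM in T1D mice and 1210, 256 and 8270 CPM in Lira mice. *Hbb-bt* read 369, 17.5 and 137 CPM, 128, 31.7 and 1030 CPM, and 261, 45.6 and 1810 CPM in the same order. Alpha-globin and beta-globin genes were thus high and low in the same mice, and their proportions moved far less than their levels. The summed alpha-globin FPKM was 1.66 to 2.54 times the summed beta-globin FPKM in the 9 libraries, the count of *Hba-a2* was 0.568 to 0.799 of that of *Hba-a1*, and the count of *Hbb-bt* was 0.132 to 0.234 of that of *Hbb-bs*. The split between copies is uncertain. Of the stretches of 50 bases in the *Hba-a1* transcript, 67.5% also occur in that of *Hba-a2*, 65.8% of those of *Hbb-bs* occur in *Hbb-bt*, and the counts of such reads are estimates. The promoters of *Hba-a1* and *Hba-a2* are identical at 297 of 297 bases once shifted by 3 bases.

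The 4 globin genes together took 0.754%, 0.0343% and 0.218% of the counts of NGT mice 1, 2 and 3. Their share was 0.231%, 0.0481% and 1.66% in T1D mice and 0.356%, 0.0729% and 3.11% in Lira mice, with Wilson 95% intervals of at most 0.0086 percentage points to either side, which cover counting error only. Group means were 0.335 ± 0.374% in NGT, 0.646 ± 0.883% in T1D and 1.18 ± 1.68% in Lira mice (SD, n = 3), and without mouse 3 the Lira mean was 0.214% and the T1D mean 0.140%. Globin counts made up between 18% (NGT mouse 2) and 85.6% (Lira mouse 3) of the counts of all 34 genes, so the totals of the list are mainly globin in the high mice.

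**Figure D3:**
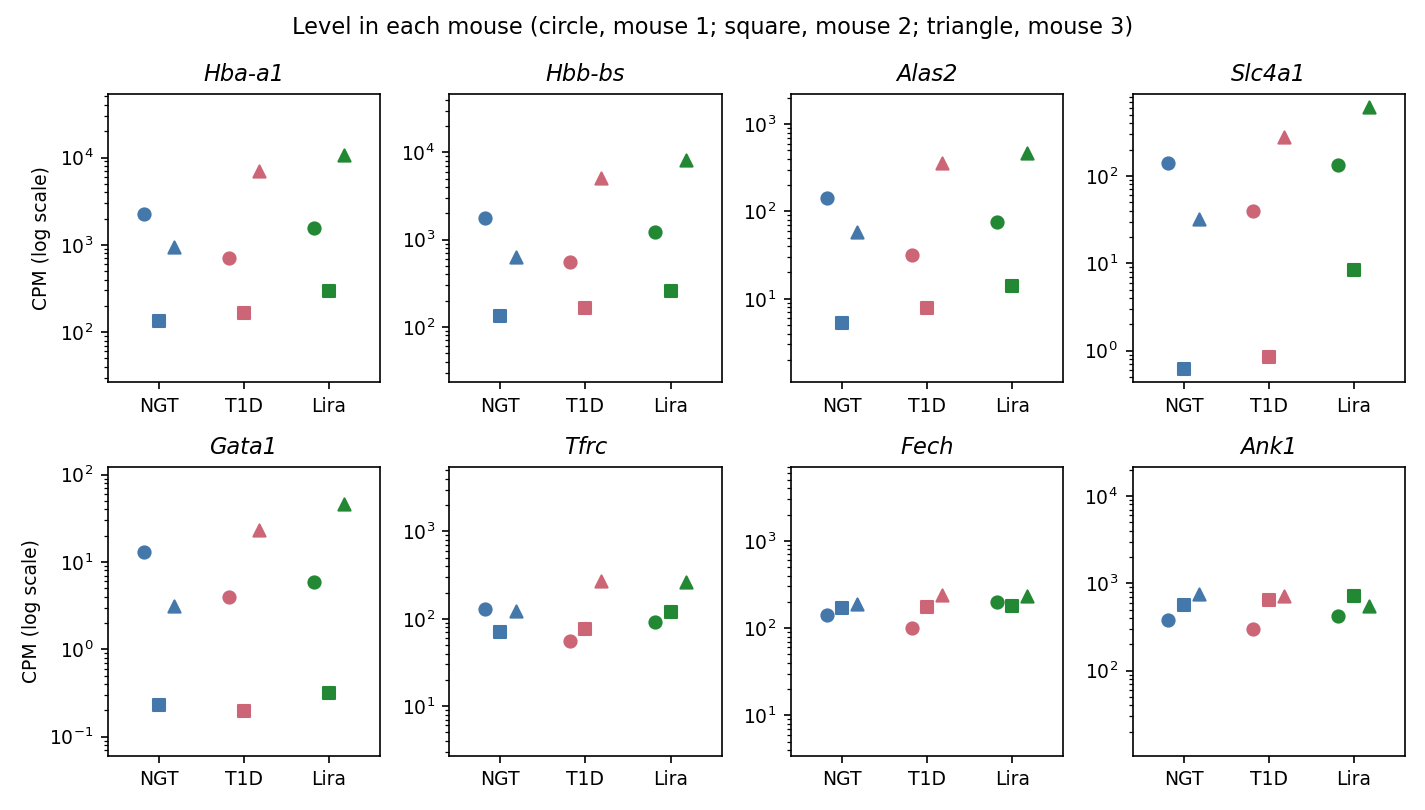
Level of 8 of the genes in each mouse in CPM, each panel on a log axis of the same length, with color for the group and symbol for the mouse number, and values under 3 counts drawn at 3 counts. In *Hba-a1*, *Hbb-bs*, *Alas2*, *Slc4a1* and *Gata1* the square (mouse 2) is the lowest of every group and each group spans more than 10-fold, whereas *Fech* and *Ank1* stay within a narrow band.

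Among the genes of heme synthesis and iron, the erythroid first enzyme spanned a range as wide as that of the globins and the later enzymes a far narrower one. *Alas2* (11656) read 141, 5.34 and 57.6 CPM in NGT mice, 31.9, 7.86 and 363 CPM in T1D mice and 75.7, 13.9 and 466 CPM in Lira mice. The order of libraries was that of the globins and the groups overlapped. The summed beta-globin FPKM stayed between 42.8 and 90.9 times the *Alas2* FPKM, although *Alas2* itself spanned 87.3-fold. *Slc25a37* (67712), mitoferrin 1, which carries iron into the mitochondria of erythroid cells, was the other steep gene of this group, with 32.6 to 148 CPM in NGT, 31.2 to 278 CPM in T1D and 37.5 to 438 CPM in Lira mice, a span of 14.0-fold.

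Ferrochelatase, *Fech* (14151), read 141, 170 and 191 CPM in NGT mice, 100, 175 and 242 CPM in T1D mice and 198, 179 and 236 CPM in Lira mice. It was lowest in T1D mouse 1 and highest in T1D mouse 3, a span of 2.42-fold, and the groups overlapped. In FPKM, *Fech* exceeded *Alas2* in NGT mouse 2 (51.9 against 2.41 FPKM) and fell below it in Lira mouse 3 (90.9 against 265 FPKM), so the proportion between the end and the start of the chain turned around between these mice. The housekeeping form of the first enzyme, *Alas1*, showed the same turn: the FPKM of *Alas2* was 0.0653 of that of *Alas1* in NGT mouse 2 and 7.05 times it in Lira mouse 3.

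The enzymes of the list that act between them were flat. *Alad* (17025), which joins pairs of aminolevulinate, read 31.8, 24.7 and 20.3 CPM in NGT, 22.5, 12.5 and 44.3 CPM in T1D and 24.1, 22.7 and 80.9 CPM in Lira mice. *Uros* (22276), which closes the ring, read 18.2, 22.9 and 20.8 CPM, then 13.3, 12.5 and 24.7 CPM, then 15.6, 16.9 and 34.7 CPM. Lira mouse 3 was the highest in both genes and the groups overlapped. *Urod* (22275), which trims the side chains of the ring, had the narrowest span of the 34 genes, with 40.3, 40.8 and 43.9 CPM in NGT, 36.4, 38.4 and 62.7 CPM in T1D and 42.2, 47.5 and 78.2 CPM in Lira mice. *Cpox* (12892), which acts after it, read 60.5, 52.1 and 58.8 CPM, then 36.3, 32.9 and 86.6 CPM, then 65.5, 45.6 and 131 CPM. Lira mouse 3 was the highest in these flat genes too, while the mice numbered 2 were the lowest of every group in *Cpox* but not in *Alad*, *Uros* or *Urod*. *Ppox*, the enzyme before ferrochelatase, ranged from 15.3 to 63.2 CPM, *Slc25a38*, the glycine carrier of the mitochondrion, from 14.6 to 33.6 CPM, and *Tfrc*, the transferrin receptor that brings iron into the cell, from 55.3 to 268 CPM.

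The membrane skeleton genes were divided. *Slc4a1* (20533), band 3, the anion exchanger of the red cell, had the widest ratio of any of the genes with more than 3 counts in the lowest library, 999-fold. It read 142, 0.619 and 32.3 CPM in NGT mice, 39.5, 0.851 and 282 CPM in T1D mice and 133, 8.41 and 618 CPM in Lira mice. *Epb42*, which links band 3 to the skeleton, spanned 183-fold, from 0.387 CPM in NGT mouse 2 to 70.7 CPM in Lira mouse 3. Both followed the order of the globins, except that T1D mouse 1 and NGT mouse 3 changed places, and both overlapped between groups.

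The other 3 skeleton genes did not follow it. *Ank1* (11733), ankyrin 1, had the highest mean FPKM outside the globins, 174 FPKM, and read 381, 562 and 757 CPM in NGT, 301, 636 and 706 CPM in T1D and 420, 709 and 551 CPM in Lira mice. *Sptb*, beta-spectrin, ranged from 149 to 437 CPM, and *Epb41* (269587), protein 4.1, read 193, 204 and 224 CPM, then 78.3, 148 and 313 CPM, then 226, 228 and 338 CPM. *Epb41* was the only one of the 34 genes (2.94%) in which 2 groups did not overlap, as every Lira mouse lay above every NGT mouse. Of all genes, 2.49% lay higher in this way, so the share is near the background. Ankyrin 1 and beta-spectrin are also proteins of striated muscle, and with the summed skeletal muscle list the Pearson correlation of log2 CPM over the 9 libraries was 0.81 for *Ank1*, 0.91 for *Sptb*, 0.65 for *Fech* and 0.54 for *Epb41*. The values share their libraries and scaling, and the part of muscle RNA in them was not tested.

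The surface proteins of the red cell were low and steep. *Kel* (23925), the Kell antigen, read 20.1, 0 and 8.39 CPM in NGT mice, 5.98, 0.327 and 45.3 CPM in T1D mice and 9.21, 1.09 and 75.3 CPM in Lira mice, so that Lira mouse 3 lay at least 325-fold above NGT mouse 2. *Tspan33* (232670), a tetraspanin of erythroid precursors, read 20.6, 2.71 and 7.52 CPM, then 7.56, 3.80 and 44.7 CPM, then 13.8, 3.66 and 70.0 CPM. The mice numbered 2 were again the lowest of each group and the groups overlapped. *Icam4* (78369), the Landsteiner-Wiener adhesion protein, was near the limit of detection in NGT mouse 2, with 2 counts, and read 0.888, 0.155 and 0.554 CPM in NGT, 0.761, 0.655 and 2.13 CPM in T1D and 1.07, 0.545 and 4.99 CPM in Lira mice. *Rhag* and *Rhd*, of the Rhesus complex, reached 65.5 and 57.7 CPM in Lira mouse 3, *Ermap*, an erythroid membrane protein, 142 CPM, and *Cldn13*, a claudin of mouse erythroid cells, 45.9 CPM, against at most 1.70 CPM of each in NGT mouse 2.

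The erythroid factors had nearly the same order of libraries at lower levels. *Gata1* (14460), the main transcription factor of the lineage, read 13.1, 0.0773 and 3.17 CPM in NGT mice, 3.97, 0.196 and 23.0 CPM in T1D mice and 5.85, 0.312 and 46.3 CPM in Lira mice, and in NGT mouse 2 this was 1 count. *Nfe2* (18022), which acts on the globin locus, read 21.6, 0 and 5.70 CPM, then 8.21, 0.458 and 21.3 CPM, then 9.21, 1.48 and 63.6 CPM, at least 274-fold from NGT mouse 2 to Lira mouse 3. *Tal1* (21349), a partner of GATA1, read 17.4, 2.55 and 7.68 CPM, then 8.15, 1.96 and 24.1 CPM, then 15.8, 2.88 and 59.8 CPM. In these 3 genes each group ran from a low mouse 2 upward and the groups overlapped. *Klf1*, the factor of adult beta-globin, ranged from 0.232 to 41.3 CPM and *Epor*, the erythropoietin receptor, from 0.464 to 25.2 CPM, each from NGT mouse 2 to Lira mouse 3.

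Of the maturation enzymes, *Trim10* (19824), a ring-finger protein of late erythroid cells, read 15.0, 0 and 4.51 CPM in NGT mice, 3.75, 0.131 and 25.4 CPM in T1D mice and 10.3, 0.935 and 73.5 CPM in Lira mice. *Trim58*, a ubiquitin ligase of erythroblasts that lose their nucleus, was at 0 in all 3 mice numbered 2 and reached 6.03 CPM in Lira mouse 3. *Bpgm* (12183), which makes the bisphosphoglycerate that loosens oxygen from hemoglobin, was flat, with 94.9, 86.9 and 121 CPM in NGT, 57.6, 111 and 292 CPM in T1D and 116, 95.5 and 208 CPM in Lira mice. It was the highest in T1D mouse 3 and the lowest in T1D mouse 1.

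Between the T1D and NGT groups no erythroid or heme synthesis gene changed by the thresholds used, an adjusted p-value below 0.05 with a more than 2-fold change. The test called 0 of the 34 genes and 0 of the 13960 tested genes (0.0%), and the lowest adjusted p-value of any gene was 0.977 (edgeR quasi-likelihood F test, Benjamini-Hochberg adjusted). Unadjusted, 0 of the 34 genes had a p-value under 0.05 in edgeR and 0 in DESeq2, against 3.95% of all genes in edgeR. Every gene overlapped between the 2 groups, whereas 3.52% of all genes lay higher and 5.08% lower in every T1D mouse. The log2 fold change was above 0 in 27 of the 34 genes and in 52.1% of all genes, with a median of 0.57 against 0.02 over all genes. This count rests on T1D mouse 3: without it 33 of the 34 genes were lower in T1D mice and the median was -1.03, while without NGT mouse 1 it was 1.82 and without NGT mouse 2 0.105. With all mice 7 of the 34 genes and 47.9% of all genes were below 0.

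*Hba-a1* had a log2 fold change of 1.24 (standard error 1.58, 95% interval -2.37 to 4.84) and *Alas2* of 0.98 (-2.66 to 4.63), intervals that reach from a several-fold fall to a larger increase. For *Gata1* the value was 0.72 (-3.42 to 4.86). *Fech* was measured more narrowly, at 0.04 (-0.64 to 0.73). The lowest unadjusted p-values of the 34 genes were 0.268 for *Icam4* (log2 fold change 1.12), 0.296 for *Bpgm* and 0.444 for *Uros* in edgeR's quasi-likelihood test. On log2 CPM alone, the exact two-sided permutation test over the mice gave p = 0.9 for *Hba-a1*, 0.9 for *Alas2* and 0.7 for *Gata1*, where 3 mice against 3 allow no p under 0.1.

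Over all genes, T1D and NGT mice that share a number lay to the same side of their group means. These groups were therefore also compared within numbers, although the sources state no pairing. The 34 genes did not move one way: the T1D mouse was higher in 0 of the 34 genes for number 1, in 23 for number 2 and in 33 for number 3, with median differences of -1.39, 0.16 and 2.05 in log2 CPM. For *Hba-a1* the differences were -1.71, 0.29 and 2.89. In the fit with the replicate number as a block the median log2 fold change of the 34 genes was 0.04 in place of 0.57 over all 9 libraries, and 0.375 with 25 of 33 tested genes higher when only the T1D and NGT libraries were fitted. In both fits 0 of them had an unadjusted p-value under 0.05 in edgeR.

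**Figure D4:**
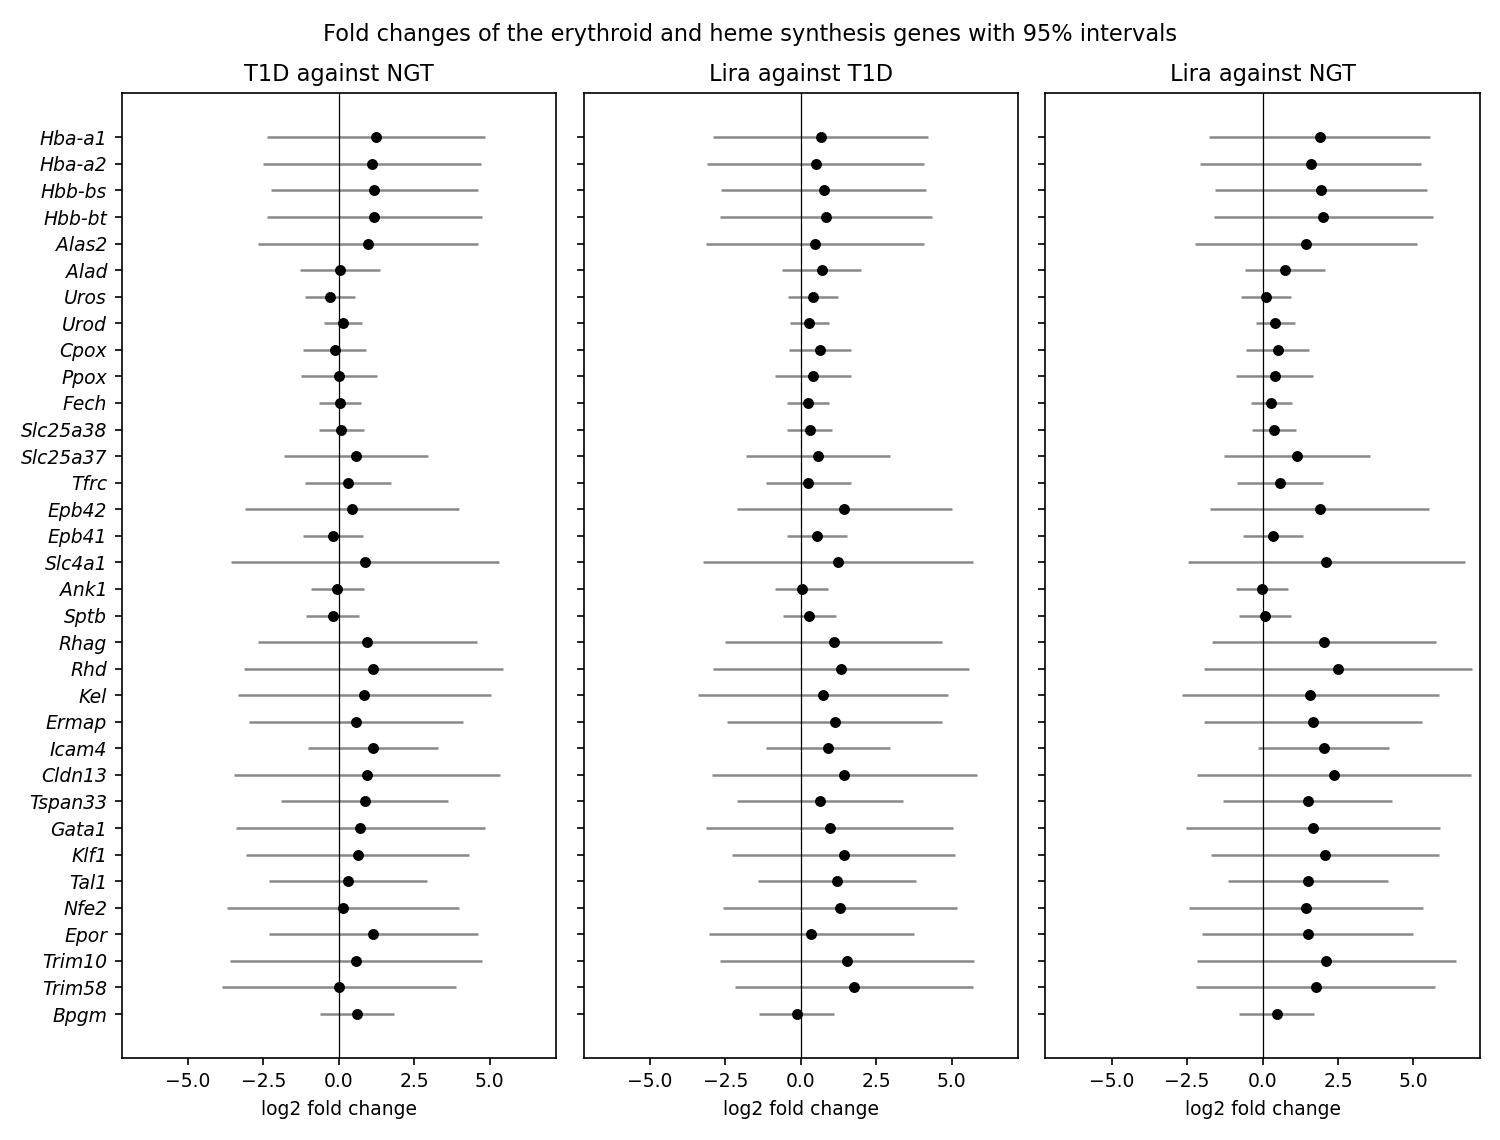
Log2 fold change (points) with 95% interval (lines) of each of the 34 genes in the edgeR fit, for T1D against NGT, Lira against T1D and Lira against NGT mice. Every interval crosses 0, and those of the steep genes such as *Hba-a1* (-2.37 to 4.84 in T1D against NGT) are several times wider than those of flat genes such as *Fech* (-0.64 to 0.73).

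Between the Lira and T1D groups the test again called 0 of the 34 genes and 0 of all genes (0.0%), with 0.978 as the lowest adjusted p-value (edgeR quasi-likelihood F test, Benjamini-Hochberg adjusted). With group alone in the model, no gene of the list had an unadjusted p-value under 0.05 in edgeR or DESeq2. Over all genes 3.33% did in edgeR. Of the 34, 0 lay outside the range of the other group, against 3.74% of all genes higher and 3.40% lower in Lira mice. The log2 fold change was above 0 in 33 of the 34 genes, all but *Bpgm*, and in 55.3% of all genes, with a median of 0.67 against 0.04. The direction turned when Lira mouse 3 was left out and T1D mouse 3 kept, with 29 of the 34 genes lower in Lira mice and a median of -0.69. Taken by number, the Lira mouse was above the T1D mouse in 33, 28 and 29 of the 34 genes. With the number as a block and only these groups fitted in edgeR, 16 of the 34 had an unadjusted p-value under 0.05, against 258 of 13684 genes. Of the 34, 0 were called there, and the sources state no pairing of these mice. Without T1D mouse 3 the median was 2.5, and 3 genes (*Epb41*, *Cpox* and *Tfrc*, named after their values were seen) reached an unadjusted p-value under 0.05 in edgeR, against 707 of 13871 genes tested in that fit.

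*Hba-a1* had a log2 fold change of 0.66 (standard error 1.57, 95% interval -2.91 to 4.22), *Alas2* of 0.47 (-3.15 to 4.08), *Gata1* of 0.96 (-3.15 to 5.06) and *Fech* of 0.25 (-0.44 to 0.93). The lowest unadjusted p-values were 0.198 for *Cpox* (log2 fold change 0.64, -0.40 to 1.68), 0.237 for *Epb41* and 0.266 for *Alad* in edgeR's quasi-likelihood test. On log2 CPM alone the exact permutation test gave p = 0.7 for *Hba-a1*, *Alas2* and *Gata1* and 0.4 for *Cpox*.

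The Lira and NGT groups stood furthest apart in the median, and still 0 of the 34 genes and 0 of all genes (0.0%) were called, with a lowest adjusted p-value of 0.999 (edgeR quasi-likelihood F test, Benjamini-Hochberg adjusted). In edgeR 0 of the 34 genes and 0.781% of all genes had an unadjusted p-value under 0.05, and in DESeq2 1 of them did, *Icam4*, against 154 of 13960 genes. *Epb41* was higher in every Lira mouse than in every NGT mouse, 1 of 34 genes (2.94%), and 2.49% of all genes were, so this share is near the background. Its log2 fold change was 0.35 (standard error 0.43, 95% interval -0.64 to 1.34). No gene of the list was lower in every Lira mouse, against 1.78% of all genes. The median log2 fold change was 1.5 against 0.04 over all genes, with 33 of the 34 genes and 55.5% of all genes above 0 (1 gene and 44.5% below), and moved to -0.19 with 23 of the 34 genes lower when Lira mouse 3 was left out.

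*Icam4* came nearest to the threshold, at a log2 fold change of 2.03 (95% interval -0.14 to 4.20) and an unadjusted p-value of 0.0633 in edgeR, on 2 to 87 counts per library. *Urod* followed at 0.167 and *Tal1* at 0.229 in the same test. *Hba-a1* differed by a log2 fold change of 1.89 (-1.78 to 5.56), *Alas2* by 1.45 (-2.23 to 5.13), *Gata1* by 1.67 (-2.52 to 5.87) and *Fech* by 0.29 (-0.40 to 0.98). The exact permutation test gave p = 0.5 for *Hba-a1*, 0.6 for *Alas2* and 0.2 for *Fech*. The 3 comparisons share their groups in pairs, so their values are not independent of each other.

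How closely a gene followed the rest of the list was described by the Pearson correlation of its log2 CPM with the mean of the other members over the 9 libraries, which share their scaling. It was over 0.9 in 22 genes, among them *Hba-a1* (0.983), *Hbb-bs* (0.985), *Slc25a37* (0.980) and *Tspan33* (0.978). It was 0.545 for *Fech*, 0.632 for *Epb41*, 0.015 for *Ank1* and -0.134 for *Sptb*. The other 8 flat genes followed the list more closely within their narrow range, with *Slc25a38* at 0.932, *Cpox* at 0.915, *Ppox* at 0.9, *Alad* and *Tfrc* at 0.873, *Urod* at 0.828, *Bpgm* at 0.769 and *Uros* at 0.703.

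Outside the list, genes with a high correlation with the mean of the members included *Car2* (carbonic anhydrase 2, 0.984), *Tent5c* (0.980), *Abtb1* (0.979), *Ccndbp1* (0.975), *Mcm2* (0.974), *Atad5* (0.973), *Fhdc1* (0.972), *Mfsd2b* (0.971) and *Fen1* (0.965). Of the 10381 other genes with a mean of at least 5 CPM, 137 (1.32%) exceeded 0.9.

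Further genes of the same pathways were taken from lists. Of 38 other erythroid genes, 38 were tested, 17 spanned more than 10-fold, 16 had a correlation over 0.9 with the members, and 0 were called in any comparison. Unadjusted p-values under 0.05 in edgeR were found for 0 of them in T1D against NGT mice (2.36% of all genes were higher at that level), for 1 in Lira against T1D mice (*Xk*, against 1.55% of all genes) and for 1 in Lira against NGT mice (*Erfe*, against 0.487% of all genes), both higher in Lira mice and named after their values were seen. Their adjusted p-values were 0.978 and 0.999 in edgeR. *Erfe* encodes erythroferrone, the hormone by which erythroblasts lower hepcidin, and read 0.571, 0.541 and 0.554 CPM in NGT, 1.41, 0.917 and 2.20 CPM in T1D and 6.35, 0.779 and 1.95 CPM in Lira mice, with its highest level in Lira mouse 1 and not in Lira mouse 3. The most abundant of these genes were flat: *Tmod1*, tropomodulin 1, ranged from 225 to 454 CPM and *Aqp1*, a water channel also found in vessels, from 183 to 536 CPM. The median log2 fold changes of the 38 genes were 0.20, 0.54 and 0.75 in the 3 comparisons, against 0.02, 0.04 and 0.04 over all genes.

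Of 19 other heme and iron genes, 19 were tested, 3 spanned more than 10-fold (*Blvrb* and *Tspo2* among them, named after their values were seen) and 0 were called. In edgeR, 2 genes were lower in T1D than NGT mice at an unadjusted p-value under 0.05, *Alas1* and *Ireb2* (iron regulatory protein 2), against 1.60% of all genes in that direction, and their adjusted p-values were 0.977. In Lira against T1D mice *Alas1*, *Abcb6* (a porphyrin carrier) and *Ireb2* were higher at that level, 3 genes against 1.55% of all genes, and their adjusted p-values were 0.978 in edgeR. In Lira against NGT mice 0 reached that level, against 0.781% of all genes. *Alas1*, the first enzyme of heme synthesis in cells other than erythroid ones, read 103, 112 and 99.9 CPM in NGT, 65.3, 66.2 and 72.2 CPM in T1D and 110, 166 and 91.2 CPM in Lira mice. Every T1D mouse lay below every mouse of the other groups, in a gene whose correlation with the erythroid members was -0.132. Over all genes, 5.08% were lower in every T1D than every NGT mouse, and 3.74% higher in every Lira than every T1D mouse. *Alas1*, *Abcb6* and *Ireb2* were named after their values were seen, and the T1D mice are shared by both comparisons. The ferritin genes *Fth1* (1000 to 1740 CPM) and *Ftl1* (159 to 934 CPM) store iron in most cells, and *Ftl1* was highest in T1D mouse 1. The median log2 fold changes of the 19 genes were 0.08, 0.29 and 0.18.

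Of the globin genes outside the list, *Hba-x*, *Hbb-y* and *Hbb-bh1*, which serve the embryo, were at or under 0.287 CPM in every library. Of the 6 such genes only *Hbq1b*, a theta-globin gene, passed the filter, at 8.50, 0 and 1.82 CPM in NGT, 1.69, 0.262 and 11.7 CPM in T1D and 2.78, 0.234 and 22.2 CPM in Lira mice, again with NGT mouse 2 lowest and Lira mouse 3 highest.

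Markers of other marrow cells were also high in Lira mouse 3 and low in NGT mouse 2, the libraries at the ends of the globin range. A list of 16 neutrophil genes summed to 2800, 9.51 and 528 CPM in NGT mice, 1590, 90.9 and 1770 CPM in T1D mice and 951, 139 and 6090 CPM in Lira mice. All 16 were tested, 16 spanned more than 10-fold, and 0 were at 0 in every library. A megakaryocyte and platelet list (14 genes, 11 spanning more than 10-fold) ran from 49.1 CPM in NGT mouse 2 to 661 CPM in Lira mouse 3 and a B cell list (13 genes, 10 of them) from 20.0 to 263 CPM in the same mice. In T1D mouse 3, which had the second highest globin level, the B cell sum was 52.2 CPM, near that of T1D mouse 2 (51.1 CPM) and below those of NGT mouse 1 (116 CPM), T1D mouse 1 (93.8 CPM) and Lira mouse 1 (68.2 CPM). The correlation with the erythroid members ran from 0.662 (*Mmp9*) to 0.865 (*Fcnb*) over the 16 neutrophil genes and from 0.178 (*Ebf1*) to 0.750 (*Cd79a*) over the 12 B cell genes tested, these 4 being named after their values were seen. In each of these lists the mice numbered 2 of the NGT and Lira groups were among the lowest and Lira mouse 3 was the highest.

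A cell cycle list of 17 genes ran from 57.9 CPM in NGT mouse 2 to 1240 CPM in Lira mouse 3, and 10 of its genes had a correlation over 0.9 with the erythroid members. Ranges by group were 57.9 to 419 CPM in NGT, 85.5 to 561 CPM in T1D and 68.5 to 1240 CPM in Lira mice, against 9.51 to 2800, 90.9 to 1770 and 139 to 6090 CPM for the neutrophil list. The lists did not rank the high mice alike: the neutrophil sum of T1D mouse 1 (1590 CPM) was above that of Lira mouse 1 (951 CPM), whereas its globin share (0.231%) was below that of Lira mouse 1 (0.356%). The adipocyte list (220 to 1920 CPM) and the mast cell and basophil list (13.8 to 49.5 CPM, 9 of 10 genes in the table) spanned less. The part of marrow content in the differences between mice was not tested.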

How the data were processed

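The RNA-seq data cover 9 tibias, 3 in each of the NGT, T1D and Lira groups. Per the labels, RNA was extracted with TRIzol, and the study's methods describe oligo(dT) selection and alignment to the mouse genome. The submitters' processing notes name build mm9, while the aligner, the counting tool and the strand setting are not given in the sources used here. The authors deposited expected counts per gene, estimated from the alignments without normalization and 30.2% of them not whole, and FPKM values scaled by the authors for gene length and library total. All 9 samples were mapped by their titles.

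Expected counts were rounded and analysed with edgeR 4.0.16 in R 4.3.3 (TMM, glmQLFit and glmQLFTest, 3 group means over 9 libraries, genes of 10 or more counts in 3 or more libraries). Adjusted p-values cover all 13960 genes. Library totals were 13086373 to 16528394 counts. CPM are rounded counts over TMM-scaled totals. Intervals of fold changes are 95% intervals from the F statistic. The study's methods describe the 3 samples of a group as 3 mice, and p-values measure the spread between them. Same-numbered NGT and T1D mice correlated in their deviations from the group means (r = 0.583, 0.647 and 0.283). They were therefore also compared by number, although the titles give only a number and the methods state no pairing. Mice of unlike number correlated as well, as Lira mouse 3 did with NGT mouse 1 (r = 0.78). The procedure was tested on simulated data. The genes, lists, naming rule and tests were chosen with earlier results of these data known. Values in every mouse are given for the 2 genes of highest mean FPKM in each role and the 3 of lowest p in each comparison, and for some others. Alternatives were DESeq2 1.42.0, limma 3.58.1 on log2(FPKM + 1) or log2(CPM + 1), library-size scaling, totals without the members and muscle genes, other filters, fits of the compared groups only, the replicate block, and leaving out mice. Promoters came from RefSeq (GRCm38.p6), and no coordinate of the files was used. Some genes that the naming rule covers are not reported here.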

Additional observations from a re-analysis of the deposited data

How the results depend on the processing

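In every comparison 0 genes of the list were called under every alternative run, but not all 34 could be called in each. With 10 counts required in all libraries of a group, 28 were tested. In T1D against NGT mice 33 were tested when only these groups were fitted. In that comparison DESeq2 gave no adjusted p-value for part of the list, *Gata1* and *Klf1* among them. Over all genes only DESeq2 called any, 1 gene in Lira against T1D mice (*Gpm6b*, not on the list). Genes of the list with an unadjusted p-value under 0.05, 0 in each comparison, numbered 1 in T1D against NGT mice (*Bpgm*) with T1D mouse 1 and Lira mouse 3 left out together, 1 in Lira against NGT mice (*Icam4*) in DESeq2 and with the replicate block, and 16 in Lira against T1D mice with the replicate block in the 6 libraries compared, against 258 of 13684 genes tested there. Leaving out each mouse in turn gave 0 to 1, 0 to 3 and 0 to 1 in T1D against NGT, Lira against T1D and Lira against NGT mice, the highest of these without T1D mouse 3 (*Epb41*, then *Epb41*, *Cpox* and *Tfrc*) and without Lira mouse 2 (*Icam4*). The replicate block changed no call. Same-numbered Lira and T1D mice correlated in their deviations at -0.244, 0.615 and 0.271. Lira and NGT mice did so at -0.173, 0.727 and 0.0125. In every comparison the sources name only a number that the mice share, and no pairing. Taken by number, the Lira mouse was above the T1D mouse in 33, 28 and 29 of the 34 genes (median differences 0.87, 0.49 and 0.72 in log2 CPM). In this order of comparisons the median log2 fold change ranged from -1.03 to 1.82, -0.69 to 2.5 and -0.19 to 2.65, that of *Hba-a1* from -1.38 to 2.28, -1.53 to 3.28 and -0.29 to 2.94, that of *Alas2* from -1.77 to 2.09, -1.58 to 3.22 and -0.60 to 2.56 and that of *Gata1* from -1.38 to 2.48, -1.55 to 3.06 and -0.83 to 3.44. *Fech* ranged from -0.28 to 0.32 and from -0.0272 to 0.57 in T1D against NGT and Lira against T1D mice. With T1D mouse 1 and Lira mouse 3 left out together, the signs turned in Lira against T1D mice for *Hba-a1* (-1.98), *Alas2* (-2.05), *Gata1* (-1.90), *Fech* (-0.15) and *Cpox* (-0.11), and in Lira against NGT mice for *Hba-a1* (-0.33), *Alas2* (-0.64) and *Gata1* (-0.87). In T1D against NGT mice the sign turned with the replicate block for *Gata1* (-0.0031) and *Fech* (-0.0142, and -0.0333 in the compared groups only) and for *Fech* in limma on log2(CPM + 1) (-0.0359). The cause of these changes was not tested. As a share of summed FPKM in place of counts, the globin genes held 1.2%, 2.19% and 4.0% in NGT, T1D and Lira mice, since FPKM weights short transcripts more. Leaving out each mouse gave mean globin shares of counts of 0.126% to 0.486%, 0.140% to 0.946% and 0.214% to 1.73%. *Icam4* and *Trim58* rest on few counts, and they also varied between the libraries of a group.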
